A study of Mus musculus with 56 samples.

Results

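The genes described here encode the conjugating enzymes of mouse liver: UDP-glucuronosyltransferases (UGT), sulfotransferases (SULT), cytosolic glutathione transferases (GST) and the microsomal glutathione transferases (MGST). They were chosen by symbol alone, as every gene of the expression table whose name starts with UGT and family number 1, 2 or 3, with SULT and a digit, with GST and a class letter and number, or with MGST and a digit. The rule matched 62 of the 24034 named genes: 20 UGT, 18 SULT, 21 GST and 3 MGST genes.

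Conjugation makes small lipid-like molecules water soluble so that they can leave the body in bile or urine. UGT enzymes sit in the endoplasmic reticulum and transfer a sugar, most often glucuronic acid. SULT enzymes of the cytosol transfer sulfate from the donor PAPS, and GST and MGST enzymes join the peptide glutathione to reactive, electron-poor compounds. The hepatocyte is the main site of these reactions, and several of the genes are textbook targets of liver transcription factors and of the stress-activated factor NRF2.

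Bulk RNA-seq values were used from 26 libraries of C57BL/6 mice. The 20 tumours all carry the labels MYC, an oncogene, and nicd, the NOTCH1 intracellular domain that signals without a ligand, together with luc (luciferase) or lucOS (luciferase joined to model T cell antigens). Of these, 6 luc and 6 lucOS tumours state no sex, and 4 more of each kind are titled as males. The comparison tissue was 6 healthy livers, also with no sex in the title. Every library, healthy livers included, carries a label of hydrodynamic tail vein injection, a method that brings plasmid DNA mainly into hepatocytes, and what the healthy livers received, ages and any pooling of animals are not given. No label says that replicates came from separate animals, although each title has its own animal code, so p-values measure the spread between these samples.

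Values are TPM, the share of each library's transcripts corrected for gene length, so levels of different genes can be set side by side. Libraries listed 16921 to 19172 genes above 0 TPM, and read depth is unknown. Hepatocyte identity differed greatly between the groups. Summed TPM of 12 hepatocyte markers ran from 140543 to 186384 in healthy liver, from 450 to 9091 in luc and from 535 to 7034 in lucOS tumours, and from 721 to 16484 and 1558 to 21199 in the respective male tumours. In bulk tissue, fewer hepatocytes and less RNA of these genes per hepatocyte cannot be told apart. The median gene was 1.03 log2 units higher in tumours than in healthy liver on the TPM scale. With median ratio scaling that shift was 0.081, and with quantile normalization 0.137.

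Short stretches of the promoters are shown first, for the genes that matched either of the letter patterns TGAGTCAGC and TGACNNNGC. Sequences and coordinates are from RefSeq on GRCm38.p6 and are written 5′ to 3′ along the gene's own strand, and a promoter row was found for 54 of the 62 genes. Capitals mark the matched letters in the 250 bases before the annotated start, taken from the first promoter listed for each gene and searched on both strands. The paired pi class genes Gstp1 (chr19:4037958-4038006, minus strand) and Gstp2 (chr19:4042282-4042330, minus strand) share the element TGAGTCAGC, picked after the sequences had been seen and present in 0.344% of 27025 promoters.
Gstp1: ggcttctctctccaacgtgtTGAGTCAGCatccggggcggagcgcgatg
Gstp2: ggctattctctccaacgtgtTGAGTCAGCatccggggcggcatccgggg
The antioxidant response element core TGACNNNGC, the letters bound by NRF2, was found on either strand in 3 of the 54 promoters (5.56%), against 10.1% of all promoters. The 3 genes were Gsta3 (chr1:21240444-21240492), Gstm5 (chr3:107895792-107895840) and Mgst1 (chr6:138140451-138140499), all on the plus strand, and in Mgst1 the match lies on the opposite strand. No 2 matches of different motifs overlapped in these promoters.
Gsta3: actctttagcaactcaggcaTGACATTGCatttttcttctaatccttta
Gstm5: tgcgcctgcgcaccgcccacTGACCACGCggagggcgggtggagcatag
Mgst1: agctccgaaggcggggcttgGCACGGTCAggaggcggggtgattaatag
The MYC E-box CACGTG was found in 0 of the 54 (6.05% of all promoters), and the RBPJ core TGGGAA of the NOTCH pathway in 11 (20.4%, against 21.5%). A match is a description of letters and shows no binding.

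Conjugating enzyme rows took a larger share of TPM in healthy livers than in tumours. All 62 genes together made up 1.83%, 1.91% and 2.18% of TPM (lowest, median and highest) in healthy liver. The same shares were 0.133%, 0.139% and 0.181% in luc, 0.106%, 0.130% and 0.181% in lucOS, 0.136%, 0.185% and 0.269% in luc males, and for lucOS males 0.122%, 0.189% and 0.202%. Every tumour lay below every healthy liver, and the ranges of the 4 tumour groups overlapped. These sums count the 8 UGT1 rows, which are nearly 1 signal, 8 times.

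**Figure D1:**
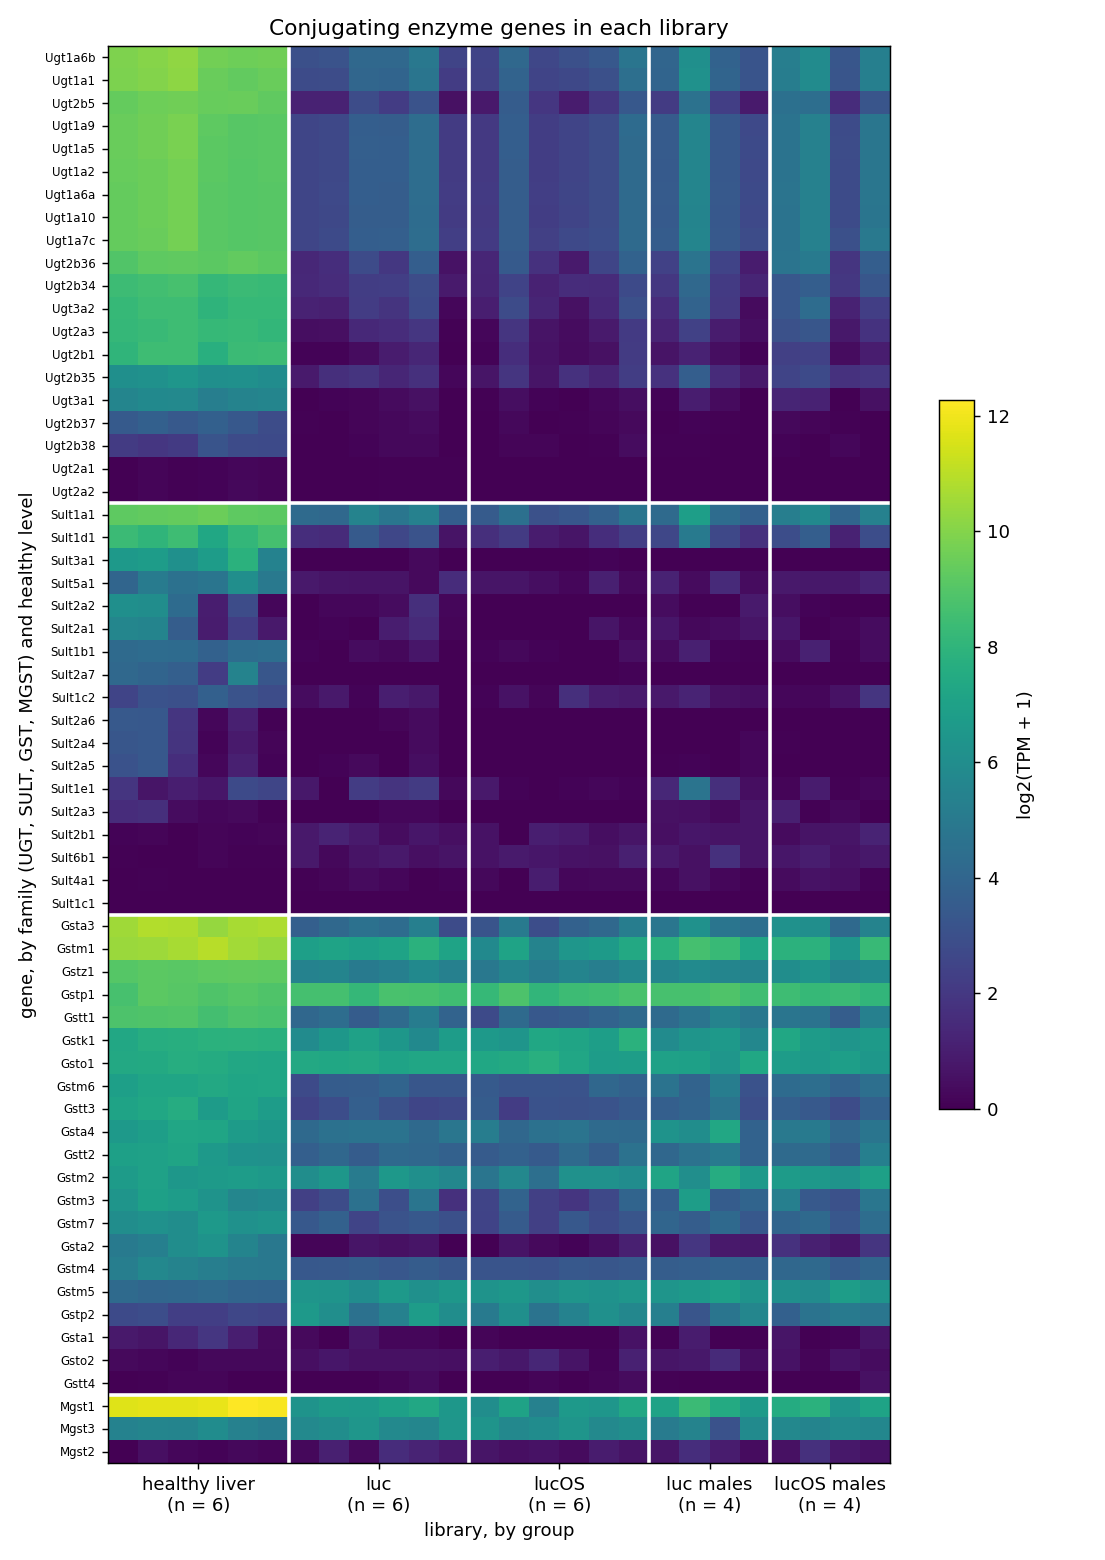
Level of each of the 62 genes (rows, grouped by family and ordered by healthy level) in each of the 26 libraries (columns, by group), as log2(TPM + 1). The UGT rows and most SULT rows are brightest in healthy liver, while Gstp1, Gsto1, Gstk1, Gstm2, Gstm5, Gstp2 and Mgst3 keep clear signal in the tumours. Genes such as Gstm1, Mgst1 and Gstz1 also keep signal there, at levels well below those of healthy liver.

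The families were lower in tumours by different degrees. Summed UGT TPM was 8411 ± 1329 (SD, n = 6) in healthy liver, against 99.1 ± 67.6 for luc and 89.1 ± 67.3 for lucOS (n = 6 each), a mean log2 difference of -6.69 for luc and -6.86 for lucOS against the same livers. Summed SULT TPM was 1180 ± 83.2, 36.9 ± 19.8 and 20.2 ± 8.84, with differences of -5.18 and -5.98. Summed MGST TPM was 3957 ± 662, 175 ± 26.5 and 164 ± 43.4, with differences of -4.50 and -4.62. The difference was smallest for the cytosolic GST genes: their sum was 5973 ± 403, 1154 ± 108 and 1080 ± 181, with differences of -2.37 and -2.48. In none of the 4 families did the range of luc or lucOS tumours overlap that of healthy liver, and in all 4 luc and lucOS overlapped each other. Sums were also taken without the subfamilies set aside for shared reads (UGT1, SULT2 and the GST classes A, M and P). Summed UGT TPM was then 2429 to 3035 in healthy liver, 2.32 to 39.2 in luc and 5.57 to 47.1 in lucOS. The UGT difference in luc was -7.84. The UGT2 genes stay in this sum, and Ugt2a1 and Ugt2a2 overlap on chromosome 5, so it may still hold shared reads. The male tumours share another title prefix, read here as 1 other animal series. Their sums were 196 ± 216 and 280 ± 164 for UGT and 1454 ± 270 and 1215 ± 160 for GST, in luc and lucOS (n = 4 each).

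Of the 62 genes, 52 reached 1 TPM in at least 4 of the 26 libraries and entered limma as log2(TPM + 1), with calls at an adjusted p under 0.05 over all 15767 genes tested. In tumours of all 4 groups against healthy liver, 45 were called lower, 4 higher and 3 neither. Animal series were read from the opening letters and digits of each title, and no label states them. On that reading healthy livers were of series AL15 and PM5 and tumours of AL51, AL54 and AL75. Tumour status and animal series therefore cannot be told apart. Of all genes tested 88.7% were called, 16.9% as lower and 71.8% as higher. Of the 52, 10 passed the filter through the healthy livers and had to come out lower: Sult1b1, Sult2a1, Sult2a2, Sult2a5, Sult2a6, Sult2a7, Sult3a1, Ugt2b37, Ugt2b38 and Ugt3a1. Of the other 42, 35 were called lower, 4 higher and 3 neither, with a median log2 fold change of -4.29. Among the 4 higher genes, Gsto2 and Mgst2 passed the filter only through tumours, which favours a higher call. In 36 of the 52 tested genes every tumour lay below every healthy liver, as in 9.83% of all genes tested. Of the 10 that had to come out lower, Sult1b1, Sult2a7, Sult3a1, Ugt2b37, Ugt2b38 and Ugt3a1 are among these 36. In 2 genes (Gstm5 and Gstp2) every tumour lay above every healthy liver, as in 54.8% of all genes tested. Scaled by median ratio, 48 of the 52 were lower and 2 higher while all genes split into 6832 higher and 6354 lower, where the unscaled values gave 11328 and 2658. With quantile normalization 47 were lower and 2 higher, and all genes split into 7035 and 5866. Both counts of lower genes include the 10 that had to come out lower.

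**Figure D2:**
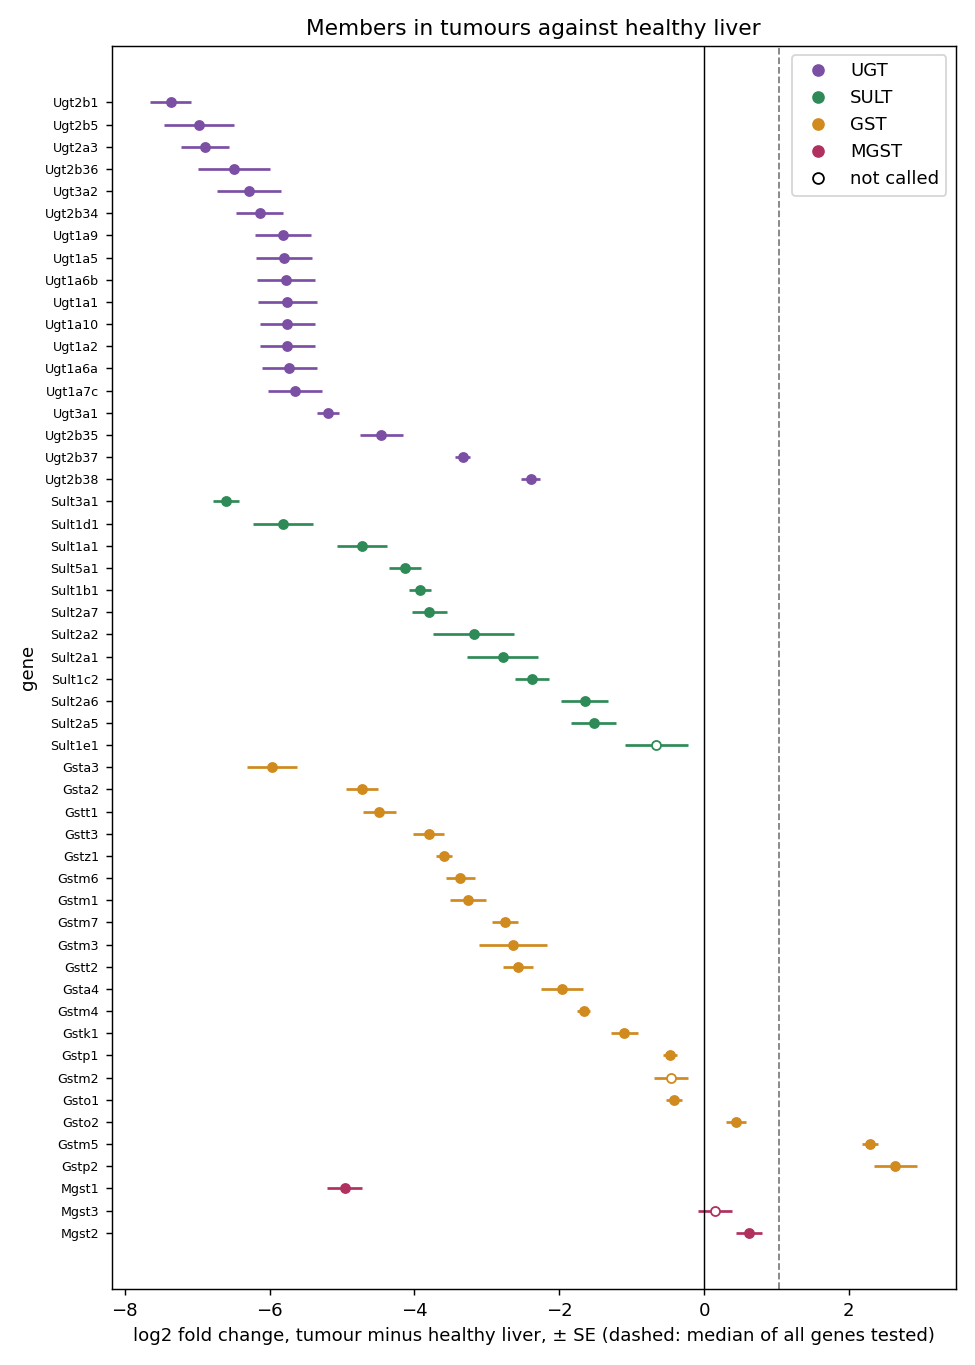
Log2 fold change of tumours against healthy liver, on the log2(TPM + 1) scale, for the 52 tested genes (points with SE, coloured by family, open where not called), beside the median of all genes tested (dashed line at 1.03). All 18 tested UGT genes lie below -2, and the GST genes spread from Gsta3 at -5.96 to Gstp2 at 2.64.

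All 18 tested UGT genes were called lower, 3 of which (Ugt2b37, Ugt2b38 and Ugt3a1) had to be. Ugt1a1, the enzyme that conjugates bilirubin, was listed at 651, 815 and 1150 TPM (lowest, median, highest) in healthy liver, at 3.54, 10.4 and 25.9 in luc and at 4.32, 6.14 and 21.4 in lucOS. The luc males had 14.7, 73.6, 14.3 and 8.04 TPM and the lucOS males 35.6, 59.4, 8.33 and 38.1. No tumour came near a healthy liver, and among the tumours the level varied widely, with luc males replicate 2 the highest. The log2 fold change was -5.76 ± 0.41 (SE, adjusted p = 1.63e-12).

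The 8 UGT1 rows cannot be read as 8 separate measurements. The UGT1 genes of chromosome 1 have their own first exons and share the remaining exons, and their values were nearly one signal. The lowest correlation between any 2 of the 8 rows over the 26 libraries was 0.998, and a row's TPM was 0.973 to 1.59 times that of Ugt1a2 in the same library. Their fold changes lay between -5.65 (Ugt1a7c) and -5.81 (Ugt1a9), and Ugt1a6b, named for phenol conjugation, had the highest healthy mean at 929 TPM.

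The UGT2 genes of chromosome 5, whose enzymes act on steroids, bile acids and many drugs, were called lower in all 8 tested members. Ugt2b5 had 618, 694 and 785 TPM in healthy liver, 0.445, 2.41 and 7.81 in luc, 0.761, 2.92 and 10.7 in lucOS, 3.43, 23.6, 3.88 and 0.839 in luc males, and the lucOS males had 21.8, 20.6, 1.95 and 8.57. Groups did not overlap with healthy liver, and luc males replicate 2 was again the highest tumour. The fold change of Ugt2b5 was -6.98 ± 0.48 (adjusted p = 9.87e-13), that of Ugt2b36 -6.49 ± 0.50 (6.64e-12) and that of Ugt2b34 -6.13 ± 0.32 (3.98e-15). Ugt2b1 changed by -7.37 with a pseudocount of 1, from a healthy mean of 307 TPM to at most 4.24 TPM in a tumour. Ugt2a3, Ugt2b35, Ugt2b37 and Ugt2b38 were called lower with -6.89, -4.46, -3.33 and -2.39, and Ugt2a1 and Ugt2a2 never exceeded 0.187 TPM and were not tested. Family 3 enzymes use other sugars than glucuronic acid. Ugt3a2 (healthy mean 310 TPM) changed by -6.28 ± 0.45 (adjusted p = 1.57e-12) and Ugt3a1 (47.3 TPM) by -5.19 ± 0.15 (4.76e-20). Ugt3a1, like Ugt2b37 and Ugt2b38, passed the filter through the healthy livers and had to come out lower. Its p-value is therefore no evidence of a change.

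Of the 12 tested SULT genes 7 passed the filter through the healthy livers and had to come out lower. Of the other 5, Sult1a1, Sult1d1, Sult1c2 and Sult5a1 were called lower and Sult1e1 was not called. Sult1a1, the main phenol sulfotransferase, had 589, 628 and 725 TPM in healthy liver, 11.7, 22.5 and 43.7 in luc, 7.31, 11.6 and 26.1 in lucOS, 17.9, 115, 18.9 and 12.4 in luc males, and the lucOS males had 37.0, 55.1, 14.9 and 41.2. The highest tumour, luc males replicate 2, was still well below the lowest healthy liver. Its fold change was -4.73 ± 0.35 (adjusted p = 2.75e-12), and that of Sult1d1, which acts on catecholamines, -5.81 ± 0.41 (1.71e-12). Sult1b1, known for thyroid hormone sulfation, was called at -3.92 ± 0.15 (4.07e-18) and Sult5a1 at -4.13 ± 0.22 (4.63e-15). Sult1b1 is among the 7 that had to come out lower, so its p-value is no evidence of a change.

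Sult3a1, an amine sulfotransferase, had the least signal in tumours beside its healthy level. It had 43.1, 104 and 230 TPM in healthy liver and was listed at 0 in 17 of the 20 tumours. The 3 tumours with a value, luc replicate 5, lucOS replicate 5 and luc males replicate 4, had 0.237, 0.1003 and 0.0467 TPM. The fold change was -6.60 ± 0.18 (adjusted p = 1.13e-20) and depended on the pseudocount, reaching -9.78 at its lowest over the settings tried. Sult3a1 passed the filter through the healthy livers and had to come out lower, so its p-value is no evidence of a change.

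The Sult2a genes of chromosome 7, which sulfate bile acids and steroid hormones, differed between the 2 sets of healthy liver. Sult2a1 had 11.4, 46.1 and 49.4 TPM in the 3 livers of the AL15 series and 0.786, 0.935 and 3.80 in the 3 of the PM5 series. Sult2a2 had 18.4, 63.7 and 68.7 TPM against 0.162, 0.996 and 6.24. The series did not overlap for Sult2a1 to Sult2a6, the PM5 livers reached down into the tumour range, and for Sult2a7 and Sult3a1 the series overlapped. These genes are known to be higher in the liver of female than of male mice; no sex is given for the healthy livers, and its part was not tested. Sult2a2 changed by -3.18 ± 0.56 in tumours (adjusted p = 1.15e-05), Sult2a1 by -2.78 ± 0.49 (1.28e-05) and Sult2a7 by -3.79 ± 0.24 (1.87e-13). Sult2a5, Sult2a6 and Sult1c2 were called lower with -1.53, -1.65 and -2.37. Sult2a1, Sult2a2, Sult2a5, Sult2a6 and Sult2a7 passed the filter through the healthy livers and had to come out lower. Their p-values are therefore no evidence of a change.

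Sult1e1, which inactivates estrogens, was the tested SULT gene without a call, at -0.66 ± 0.44 (adjusted p = 0.154). It had 0.643, 1.87 and 5.81 TPM in healthy liver, 0, 1.66 and 3.49 in luc, 0, 0.0839 and 0.763 in lucOS, 1.62, 25.2, 2.15 and 0.366 in luc males, and the lucOS males had 0.105, 0.930, 0.0496 and 0.150. The groups overlapped, and luc males replicate 2 alone exceeded every healthy liver. Without that library the fold change was -0.88 (adjusted p = 0.0159), and it was -1.60 (0.0493) with a pseudocount of 0.1, -1.45 (0.00336) with median ratio scaling and -1.72 (0.00052) with quantile normalization. Sult1c1 was listed at 0 in all 26 libraries. Sult2b1, Sult4a1 and Sult6b1 were at most 0.115, 0.0680 and 0.105 TPM in healthy liver and at most 1.33, 0.976 and 2.29 TPM in a tumour, with every tumour above every liver for Sult6b1. Sult2a3 and Sult2a4 were at most 2.13 and 9.58 TPM in a liver. None of these genes passed the filter.

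Among the 19 tested GST genes 15 were called lower and 3 higher, with a median of -2.57. All 3 tested alpha class genes were called lower. Gsta3, which inactivates aflatoxin epoxide in mice, had 1275, 1664 and 1852 TPM in healthy liver, 6.06, 18.1 and 38.4 in luc, 6.53, 14.7 and 36.0 in lucOS, 27.2, 73.4, 26.1 and 21.3 in luc males, and the lucOS males had 73.9, 66.6, 17.3 and 44.4. No tumour overlapped healthy liver. The fold change was -5.96 ± 0.34 (adjusted p = 2.09e-14), and that of Gsta2 was -4.72 ± 0.22 (2.35e-16). Gsta4, which clears the lipid peroxidation product 4-hydroxynonenal, changed less, at -1.96 ± 0.29 (7.23e-07). Its values were 89.3, 112 and 151 TPM in healthy liver, 17.3, 23.7 and 27.5 in luc, 16.3, 20.4 and 35.4 in lucOS, 76.9, 64.8, 164 and 13.3 in luc males, and the lucOS males had 30.3, 31.9, 17.0 and 26.4. A single tumour, luc males replicate 3, exceeded every healthy liver, and the other 19 lay below all of them. Gsta1 was at most 2.82 TPM and was not tested.

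The mu class moved in both directions within 1 gene cluster of chromosome 3. The 7 genes lie side by side in the order Gstm5 (chr3:107895854-107898685), Gstm7, Gstm6, Gstm3, Gstm2, Gstm1 and Gstm4 (chr3:108030571-108045179). Gstm5 was called higher at 2.29 ± 0.11 (adjusted p = 2.71e-16). It had 14.5, 15.9 and 17.8 TPM in healthy liver, 61.1, 81.7 and 96.0 in luc, 66.7, 81.0 and 87.9 in lucOS, 84.6, 99.8, 121 and 79.1 in luc males, and the lucOS males had 68.7, 59.5, 112 and 79.9. Every tumour was above every healthy liver, the 4 tumour groups overlapped, and the call held with median ratio scaling (1.04) and quantile normalization (1.43). The next 2 genes along the cluster, Gstm7 and Gstm6, were called lower with -2.75 ± 0.18 and -3.36 ± 0.21.

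Gstm1, the most abundant mu gene of the healthy livers, had 1353, 1480 and 1969 TPM there, 120, 136 and 225 in luc, 44.5, 94.4 and 171 in lucOS, 222, 406, 311 and 154 in luc males, and the lucOS males had 237, 235, 87.4 and 310. All tumours lay below all livers, with male tumours mostly above the others, and the fold change was -3.26 ± 0.25 (adjusted p = 5.33e-12). Gstm4 and Gstm3 were called lower with -1.66 ± 0.10 and -2.64 ± 0.47. Gstm2 had no call at -0.45 ± 0.24 (adjusted p = 0.0755). It had 88.9, 103 and 128 TPM in healthy liver, 33.3, 66.3 and 93.1 in luc, 21.6, 57 and 73.9 in lucOS, 144, 66.1, 195 and 97.3 in luc males, and the lucOS males had 104, 92.7, 78.3 and 123. Tumours with no sex in the title were mostly lower and male tumours near or above healthy liver. With only the former, Gstm2 was called lower at -0.94 (adjusted p = 0.00198), as it was without luc males replicate 3 (-0.52, 0.0389), with median ratio scaling (-1.74, 5.78e-07) and with quantile normalization (-0.77, 0.0102). The mu genes are close relatives, and how reads common to them were counted is not given.

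The pi class pair of chromosome 19 is nearly identical in sequence, so each gene's own value is uncertain. Gstp1 had 421, 499 and 576 TPM in healthy liver, 292, 401 and 429 in luc, 269, 353 and 457 in lucOS, 421, 412, 468 and 362 in luc males, and the lucOS males had 346, 294, 329 and 271. It was called lower at -0.46 ± 0.10 (adjusted p = 9.56e-05), with 16 of the 20 tumours below all livers and 4 within their range. With quantile normalization the call was lost (-0.23, adjusted p = 0.0525), and with median ratio scaling the fold change was -1.76 (1.86e-13). Gstp2 had 3.85, 4.85 and 6.36 TPM in healthy liver, 23.1, 64.9 and 109 in luc, 24.9, 46.7 and 71.0 in lucOS, 38.5, 8.53, 26.5 and 49.1 in luc males, and the lucOS males had 12.6, 24.3, 32.4 and 27.4. All 20 tumours were above all livers, and the fold change was 2.64 ± 0.30 (adjusted p = 1.10e-08), or 1.49 with median ratio scaling and 1.46 with quantile normalization.

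Gstp2 made up a larger share of the pair in tumours. Its share of the summed Gstp1 and Gstp2 TPM was 0.702% to 1.34% in healthy liver, 7.32% to 20.7% in luc, 8.47% to 16.2% in lucOS, 2.03% to 11.9% in luc males and 3.50% to 9.19% in lucOS males. The sum of the pair had medians of 504, 466, 410, 440 and 339 TPM in those groups. A share within the pair does not depend on how libraries are scaled, and how reads that fit both genes were assigned is not given.

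**Figure D3:**
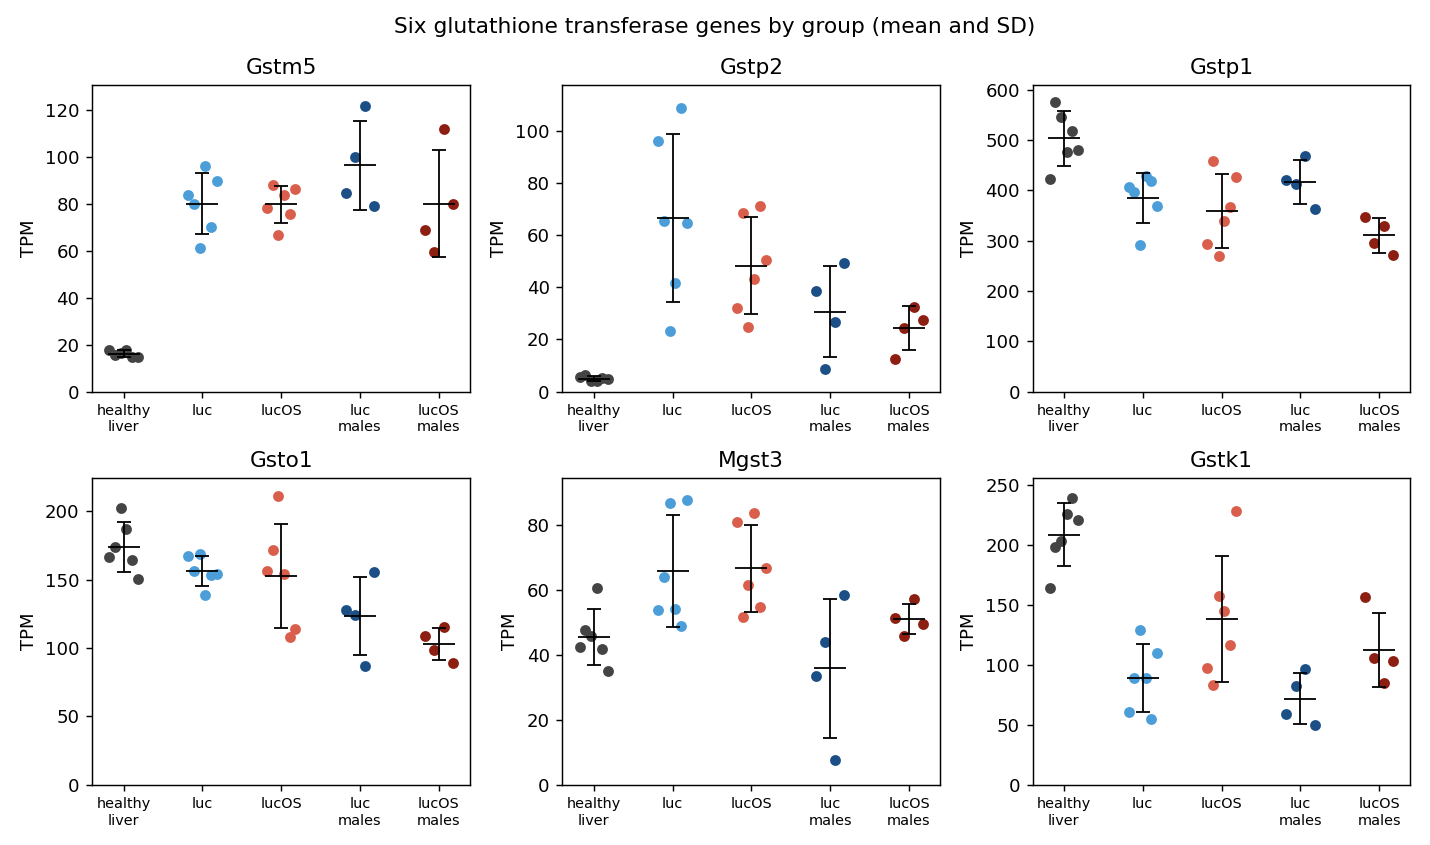
TPM of 6 glutathione transferase genes in every library (points) with the mean and SD of each group (bars), on linear axes from 0. Gstm5 and Gstp2 are above healthy liver in all 20 tumours, Gstp1, Gsto1 and Gstk1 overlap it and lie mostly below, and Mgst3 overlaps it on both sides.

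The remaining cytosolic classes ranged widely. The theta class, which handles small halogenated compounds, was called lower in all 3 tested genes: Gstt1 at -4.48 ± 0.23, Gstt3 at -3.80 ± 0.21 and Gstt2 at -2.57 ± 0.20 (adjusted p between 2.11e-15 and 1.47e-11). Gstt4 was at most 0.459 TPM and was not tested. Gstz1, the maleylacetoacetate isomerase of tyrosine breakdown, had 523, 583 and 620 TPM in healthy liver, 31.9, 40.8 and 55.0 in luc and 29.5, 41.2 and 50.3 in lucOS, and changed by -3.59 ± 0.11 (adjusted p = 4.50e-20). Its luc and lucOS values were tightly grouped and far below healthy liver. All 20 tumours lay below all livers, the highest at 79.7 TPM in lucOS males replicate 2. Gstk1, the kappa enzyme of mitochondria and peroxisomes, had 164, 212 and 239 TPM in healthy liver, 54.8, 89.1 and 129 in luc and 82.9, 131 and 228 in lucOS, and changed by -1.10 ± 0.19 (6.07e-06), or by -2.39 with median ratio scaling. A single tumour, lucOS replicate 6, reached into its healthy range.

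Gsto1, an omega class thioltransferase, had 151, 170 and 202 TPM in healthy liver, 138, 155 and 169 in luc, 108, 155 and 211 in lucOS, 128, 124, 86.4 and 155 in luc males, and the lucOS males had 109, 98.3, 115 and 88.8. The groups overlapped, with the 3 lowest values in male tumours. The call, -0.41 ± 0.11 (adjusted p = 0.00156), was lost with only the tumours of no stated sex (-0.18, 0.127), and the fold change was -1.70 (5.86e-13) with median ratio scaling and -0.51 (0.000263) with quantile normalization. Gsto2 passed the filter only through tumours, which favours a higher call. Its levels were below 2 TPM, at 0.0990, 0.193 and 0.253 in healthy liver and at most 1.76 in a tumour. It was called higher at 0.44 ± 0.14 (0.00495). This flipped to -0.25 (adjusted p = 0.0753) with quantile normalization, and was not made with median ratio scaling (0.14) or against the PM5 livers alone (0.42, adjusted p = 0.0547).

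The microsomal genes split 3 ways. Mgst1, the abundant enzyme of the endoplasmic reticulum and outer mitochondrial membrane, had the highest healthy level of all 62 genes, 3257, 3629 and 4949 TPM. It had 76.8, 98.3 and 163 TPM in luc, 41.1, 90.1 and 162 in lucOS, 132, 332, 181 and 104 in luc males, and the lucOS males had 189, 227, 79.8 and 137. No tumour overlapped healthy liver, and the fold change was -4.96 ± 0.24 (adjusted p = 9.65e-16). Mgst3 was not called at 0.15 ± 0.24 (0.557). It had 34.9, 44.0 and 60.6 TPM in healthy liver, 49.0, 58.9 and 87.6 in luc, 51.6, 64.2 and 83.7 in lucOS, 33.5, 44.0, 7.58 and 58.4 in luc males, and the lucOS males had 51.4, 45.8, 57.1 and 49.6. The outlying low value was luc males replicate 3. Without it Mgst3 was called higher at 0.30 (0.0410), with only the tumours of no stated sex it was called higher at 0.52 (0.00242), and with median ratio scaling and quantile normalization it was called lower at -1.12 and -0.52. Mgst2, linked to leukotriene C4 synthesis, passed the filter only through tumours, which favours a higher call. It was called higher at 0.62 ± 0.18 (0.00305), from at most 0.413 TPM in healthy liver to at most 2.29 TPM in a tumour. It was at -0.0066 with quantile normalization and not called with median ratio scaling (0.33).

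The luc and lucOS comparisons with healthy liver, which share the 6 livers with each other and with the comparison of all tumours, gave like counts. In luc, 45 of the 52 genes were called lower and 3 higher, where 85.6% of all genes were called, 17.4% as lower and 68.2% as higher. In lucOS, 46 were lower and 3 higher, where 85.6% of all genes were called, 17.0% as lower and 68.6% as higher. Both counts of lower genes are out of the 52, which include the 10 that had to come out lower. Gstm5 stood at 2.23 in luc and 2.24 in lucOS, Gstp2 at 3.36 and 2.98, Mgst1 at -5.19 and -5.45, and Ugt1a1 at -6.28 and -6.56. Mgst2 was the third higher gene in luc (0.66) and Gsto2 in lucOS (0.60), and both passed the filter only through tumours.

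Other genes of conjugation, from lists drawn up with earlier results of these data known, moved in both directions. Of 14 regulators of conjugation 10 were called lower and 3 higher (median -2.62), among them the nuclear receptors Nr1i3 (CAR, -5.08) and Hnf4a (-4.88) as lower. Of 11 transporters that move conjugates into or out of hepatocytes 8 were lower, led by Slco1b2 (-6.99) and Slc10a1 (-6.67), and 3 higher (median -4.14). Of 5 genes that supply UDP-glucuronic acid 4 were lower, and Pgm1 was higher (2.52), with a median of -1.57. Of 7 tested genes that supply sulfate and PAPS, Papss2 (-5.35) and Slc26a1 (-5.22) were lower and 4 higher (median 1.07). Of 11 genes of glutathione synthesis and recycling 6 were lower, such as Cth (-5.24), which makes cysteine, and Chac2 (-1.85), which degrades glutathione, and 3 higher (median -0.89). Of 13 NRF2 targets outside the conjugating enzymes 6 were higher, led by G6pdx (3.89), and 5 lower, led by Osgin1 (-2.88), with a median of 0.079. Of 3 deconjugating enzymes Gusb, beta-glucuronidase, was higher (1.66), with a median of 0.11. The medians of these 7 lists are read against the all-gene median of 1.03. Their counts are read against 71.8% of all genes called higher and 16.9% called lower.

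Cell type markers moved in the same comparison, where 71.8% of all genes were called higher and 16.9% lower. Their medians are likewise read against the all-gene median of 1.03. All 12 hepatocyte markers were called lower (median -5.75, for example Apoa2 at -6.96 and Otc at -6.80), and none was at 0 throughout a group. Of 8 cholangiocyte markers 7 were higher (Krt19 at 6.18, Spp1 at 4.28), with a summed 33.1 to 41.5 TPM in healthy liver and 365 to 2391 in tumours (median change 2.77). Of 8 Kupffer cell and macrophage markers 1 was higher and 4 lower (median -1.31, Clec4f at -3.89, Vsig4 at -2.44), of 8 endothelial markers 2 were higher and 2 lower (median 0.35, Cdh5 at 2.03, Clec4g at -2.38), and of 8 stellate cell and fibroblast markers 5 were higher and 2 lower (median 1.60, Pdgfrb at 5.96, Col1a1 at 5.02). Of 5 tested B and T cell markers 2 were higher (median 0.18, Cd79a at 0.66, Cd79b at 0.62) with all 4 tumour groups, while in luc alone 4 and in lucOS alone 3 were lower and 0 higher (medians -0.59 and -0.39). Of 7 tested lung epithelium markers 5 were higher and 2 lower (median 0.85, Ager at 2.97, Sftpc at 1.99), with Scgb1a1 at 0 in every healthy and lucOS library, while in luc alone and in lucOS alone 1 was higher and 2 lower. The part of these cells in the enzyme levels was not tested.

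Levels of most UGT genes and of Sult1a1 and Sult1d1 ran with the hepatocyte markers across tumours more closely than those of many GST genes. Over the 12 tumours with no sex in the title, Pearson's r between a gene's log2(TPM + 1) and the mean of the 12 hepatocyte markers is given as a description; the points share library composition. For 14 UGT genes, 8 of them the UGT1 rows that are nearly 1 signal, it ran from 0.690 (Ugt2b35) to 0.971 (Ugt1a1). It was 0.895 for Sult1a1 and 0.893 for Sult1d1. For 17 GST genes the median was 0.376, from -0.554 (Gsta4) to 0.916 (Gstm3). Leaving out the 2 tumours farthest from the median marker level changed r from 0.971 to 0.944 for Ugt1a1, from 0.742 to 0.555 for Mgst1, from 0.691 to 0.488 for Gstm1 and from -0.133 to -0.0735 for Gstm5, and that of Gstz1 from 0.454 to -0.0178, so that the last rested on those tumours. Spearman's rho was 0.958 for Ugt1a1, 0.881 for Sult1a1, 0.755 for Gstm1 and -0.0629 for Gstm5. Within luc alone (6 tumours) r was 0.984 for Ugt1a1 and -0.502 for Gstm5, and within lucOS alone 0.956 and 0.534.

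**Figure D4:**
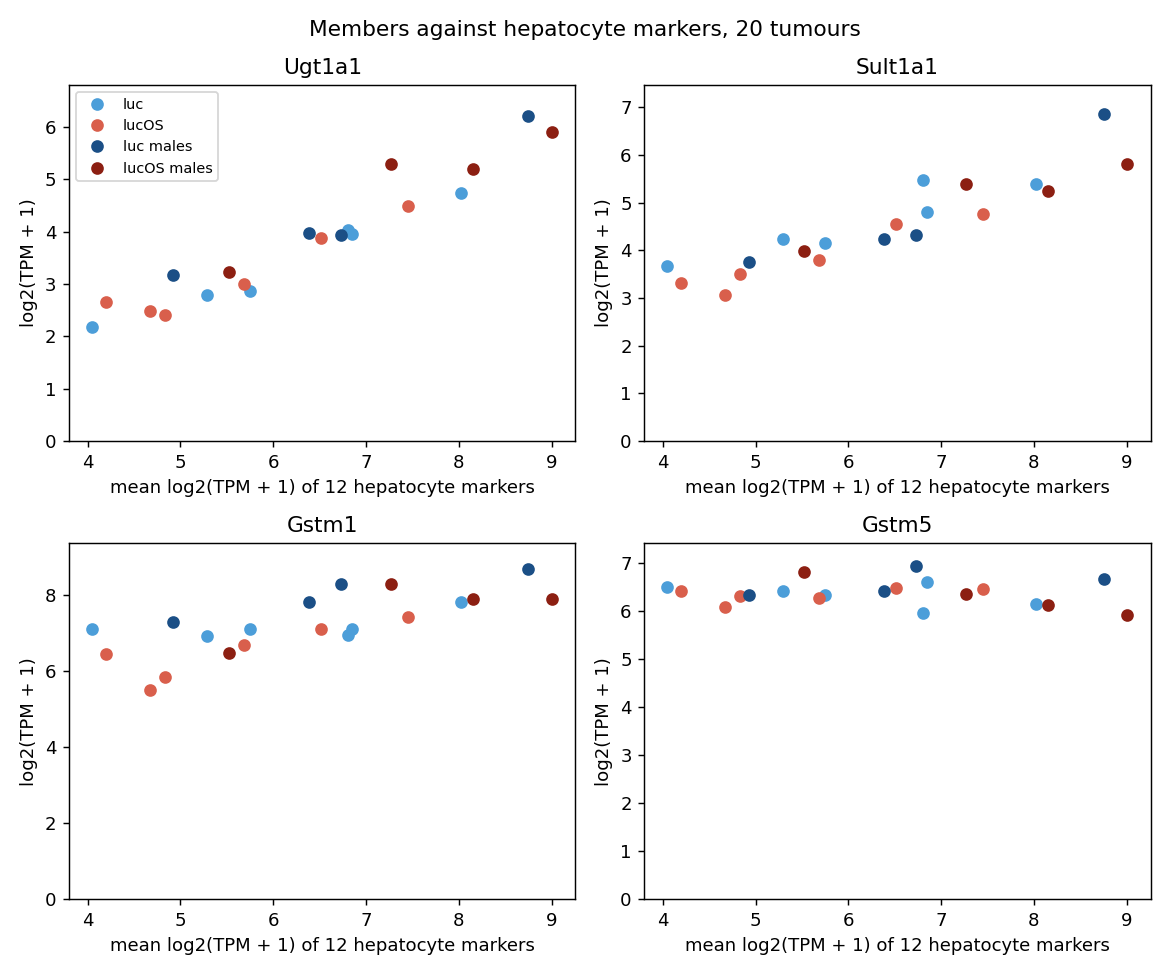
Log2(TPM + 1) of Ugt1a1, Sult1a1, Gstm1 and Gstm5 against the mean log2(TPM + 1) of 12 hepatocyte markers in the 20 tumours (points, coloured by group). Ugt1a1 and Sult1a1 rise along the axis, Gstm1 less so, and Gstm5 stays between 59.5 and 121 TPM throughout.

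Genes most alike over the 20 tumours, by Pearson's r of log2(TPM + 1), were found for the 3 most abundant genes of UGT, of SULT and of GST with MGST, again as a description. Outside the UGT1 rows, Sult1a1 was most like Sult1d1 (r = 0.942), Mgst1 most like Gstm1 (0.913), and Gstm1 next most like Gstt1 (0.870). Gstp1 had no close partner, with Gstm5 the nearest at 0.571. Sult3a1 paired with Sult2a4 at 0.832, which rests on the few tumours where either was above 0.

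Between lucOS and luc tumours with no sex in the title none of the 42 genes tested over the 20 tumours was called, and neither was any of the 15453 genes (0%). Gstk1 had 54.8, 89.1 and 129 TPM in luc and 82.9, 131 and 228 in lucOS, with overlapping ranges. It was the 1 gene with an unadjusted p under 0.05, at 0.61 ± 0.25 (limma, adjusted p = 0.997). The next smallest p-values belonged to Gstm1 (-0.66 ± 0.34), Sult1e1 (-0.97 ± 0.54), Gstm4 (-0.18 ± 0.10) and Gstt1 (-0.53 ± 0.32). The members' median was -0.15, against 0.014 for all genes. Between lucOS males and luc males none of the 42 was called either, with 0.349% of all genes called (0.259% higher and 0.0906% lower). An unadjusted p under 0.05 was found for 4: Gstp1 (-0.42 ± 0.15), Sult1e1 (-1.71 ± 0.67), Gsta4 (-1.14 ± 0.48) and Gstk1 (0.65 ± 0.31), with adjusted p between 0.173 and 0.286, and Mgst3 followed at 0.80 ± 0.40. Without luc males replicate 4, Gsta4 was called lower at -1.82 (adjusted p = 0.0102). For Gstk1 the difference between those 2 antigen effects was 0.04 ± 0.40.

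That difference between the antigen effects in male tumours and in the others was called for none of the 42 genes and for 0% of all genes. Gstm4 (0.41 ± 0.16) and Gsto2 (-0.67 ± 0.31) had an unadjusted p under 0.05, with adjusted p of 0.364 and 0.411. Gsta4 (-1.13 ± 0.61), Gstz1 (0.41 ± 0.23) and Gstp1 (-0.30 ± 0.20) came next. On simulated data of this size, with changes placed only in better expressed genes, the interaction step recovered 57% of genes changed by 1 log2 unit. A change of that size can thus be missed.

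Between male tumours and the others, no larger share of these genes was called than of all genes with every library in the fit. In lucOS males against lucOS this reversed when lucOS replicate 6 or lucOS males replicate 3 was left out, as given below. Male label, animal series (all male tumours are of series AL75, the others of AL51 and AL54) and a small deviation of the male libraries' TPM sums cannot be told apart. In lucOS males against lucOS, 6 genes were called higher and 1 lower, against 15.2% and 9.29% of all genes, so that the 7 of 42 called is below the 24.4% of all genes. The members' median was 0.91, against 0.13 for all genes. Gstm4 led at 0.70 ± 0.11 (adjusted p = 0.000355), with 7.62, 8.42 and 9.79 TPM in lucOS and 16.0, 17.3, 10.9 and 14.8 in lucOS males. The groups did not overlap, and Gstm4 kept its call in all 17 settings tried.

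Gstz1 was called at 0.62 ± 0.16 (0.0114), with 29.5, 41.2 and 50.3 TPM in lucOS and 64.7, 79.7, 47.8 and 57.1 in lucOS males, replicate 3 lying within the lucOS range. Gstm7 was called at 1.01 ± 0.28 (0.0147), Gsta2 at 0.92 ± 0.29 (0.0282), Gstm1 at 1.12 ± 0.38 (0.0375) and Gstm2 at 1.06 ± 0.37 (0.0419). Gsto1 was the lower gene at -0.54 ± 0.17 (0.0273), with 108, 155 and 211 TPM against 109, 98.3, 115 and 88.8, which overlap. Gstm2 lost its call in 11 of the 17 settings tried, both scalings included. Gstm1 and Gstm2 each lost theirs when any of 6 of the 10 libraries was left out, Gsta2 and Gsto1 for 4, Gstm7 for 2 and Gstz1 for 1. Without lucOS males replicate 2 or replicate 4 the count of calls was 2, where 2137 and 1863 of all genes were called. It was 4 without lucOS replicate 1, lucOS replicate 3 or lucOS males replicate 1, where 2986, 3121 and 3612 of all genes were called. Without lucOS replicate 6 it was 17 of 41 tested, against 3736 of 15414 genes. Without lucOS males replicate 3 it was 22 of 42, against 4792 of 15420 genes. In these last 2 fits the share called was larger among the conjugating enzymes than among all genes.

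The 15 tested UGT genes were not called, where 24.4% of all genes were. Their median was 1.49, against 0.13 for all genes, and 10 had an unadjusted p under 0.05. The share of all genes under that p is not given here and is at least the 24.4% called. Of the 10 UGT genes, 8 were the UGT1 rows, which are nearly 1 signal and also weigh on the median. The other 2 were among the 6 tested UGT2 genes, whose median was 1.24. Ugt1a1 lay just outside the threshold at 1.75 ± 0.63 (adjusted p = 0.05002). It had 4.32, 6.14 and 21.4 TPM in lucOS and 35.6, 59.4, 8.33 and 38.1 in lucOS males, where replicate 3 was low. Hepatocyte markers moved with it, with a median of 1.98 and 2 of 12 called higher, against 15.2% of all genes. Their sum was 9849, 21199, 1558 and 5873 TPM in the 4 lucOS males. B and T cell markers (4 of 4 called higher, a summed 13.7 to 38.8 TPM against 0.843 to 4.40 in lucOS) and lung epithelium markers (5 of 6 called higher, 24.4 to 62.4 TPM against 6.32 to 13.2) moved as well. Their part in the difference was not tested.

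In luc males against luc, 1 gene was called higher and 1 lower, against 8.94% and 7.97% of all genes (16.9% in all). Gsta4 was higher at 1.35 ± 0.43 (adjusted p = 0.0386), with 17.3, 23.7 and 27.5 TPM in luc and 76.9, 64.8, 164 and 13.3 in luc males. Of the 4 males 3 were above all luc tumours and replicate 4 was below them. Mgst3 was lower at -1.13 ± 0.36 (0.0394), led by the 7.58 TPM of replicate 3. Without replicate 3 neither was called (0.86, adjusted p = 0.175, and -0.53, 0.113), and none of the 42 was called without luc replicate 1, luc replicate 2, luc males replicate 1 or luc males replicate 3. One was called without luc replicate 4, luc replicate 5, luc replicate 6 or luc males replicate 2, and 5 without luc males replicate 4. Gstt3 (0.94 ± 0.32, adjusted p = 0.0501), Gstm4 (0.30 ± 0.11) and Gstp2 (-1.17 ± 0.46) had the next smallest p-values. Hepatocyte markers had a median of 0.56 with 0 of 12 called, while 4 of 4 B and T cell markers and 5 of 6 lung epithelium markers were called higher.

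**Figure D5:**
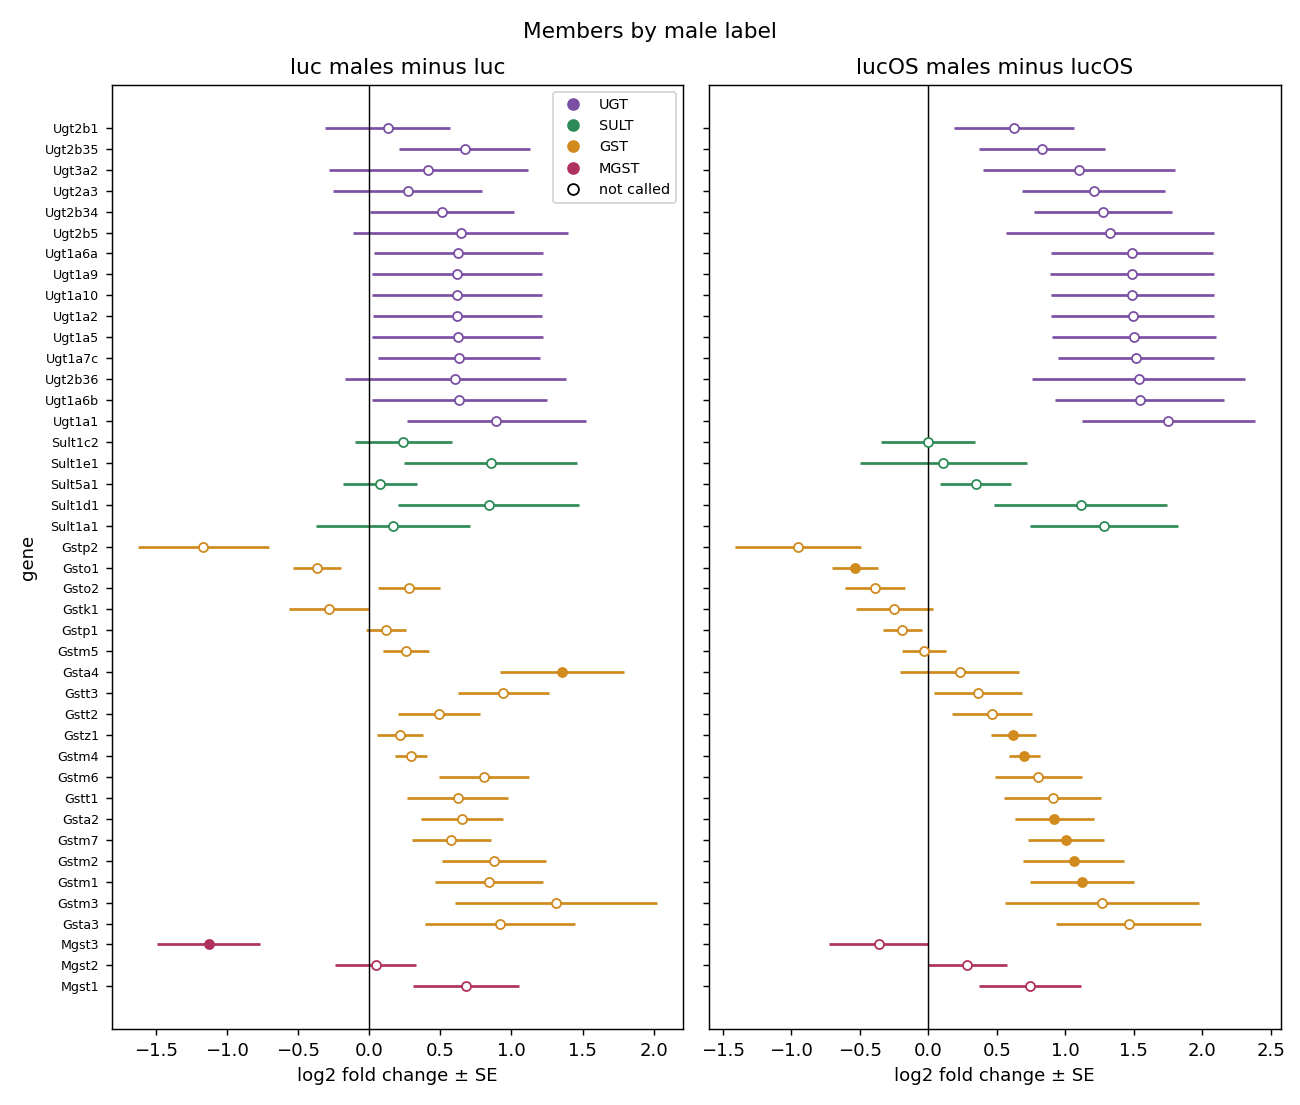
Log2 fold change with SE of the 42 genes tested over the 20 tumours, for luc males minus luc (left) and lucOS males minus lucOS (right), coloured by family, open where not called. Filled points are Gsta4 and Mgst3 on the left, and Gstm4, Gstz1, Gstm7, Gsta2, Gstm1, Gstm2 and Gsto1 on the right.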

How the data were processed

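Gene expression was measured by bulk RNA-seq of total RNA (TruSeq) in the 26 libraries used; the other 30 of the 56 samples were not analysed here. The authors deposited 1 table of TPM values, which its name calls normalized. Per the submitters' processing notes the tools were TopHat2, featureCounts and DESeq2 and the build mm10. Roles, versions, annotation, filters and strand setting were not given in the sources used here. TPM keeps no depth, so counting error is unknown, and the sums of the male libraries differ from 1000000 by -3.79 to 256. Of 24063 rows, 27 with names turned into dates and 2 with a shared name were left out. Reads common to near-identical genes (UGT1, GSTM, GSTA, GSTP, SULT2) make their separate values uncertain.

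Groups came from the titles, and animal series from the opening letters and digits of the titles. Genes that reached 1 TPM in 4 or more libraries of a fit were tested on log2(TPM + 1) values with limma 3.58.1 (trend, robust) in R 4.3.3, which understates changes of low genes. p-values were Benjamini-Hochberg adjusted over all genes tested and called under 0.05. Tumours (equal-weight mean of 4 groups), luc and lucOS were compared with healthy liver in 1 fit of 26 libraries, and the antigen, male and interaction contrasts in 1 fit of 20 tumours. Family sums are described without a p-value, because the genes were chosen together; a planned permutation test on them was not run. Genes named were, per subfamily, up to 3 of the highest mean TPM, every higher or uncalled gene, and in other comparisons those called or with the 5 smallest p-values; other genes are named to account for all 62. Members, lists, tests and motifs were chosen with earlier results of these data known. All 62 symbols matched the RefSeq name table. Alternatives were another pseudocount (0.1), 2 scalings, no microRNA genes, no filter, array weights, smaller fits, animal series and leaving out each library. On simulated data, genes changed by 1 log2 unit were recovered in 92% for tumour against healthy and 73% for lucOS against luc. The rate was 76% in males, 80% for luc males against luc and 84% for lucOS males against lucOS. The changed genes were few and all had a mean level above 5 TPM, so recovery of lower genes was not measured. Other values were computed with pandas 2.3.3, numpy 2.4.6 and scipy 1.17.1 under Python 3.11.15. Some results of the gene lists and of the motif search are not reported here.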

Additional observations from a re-analysis of the deposited data

Results flagged for a closer look

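In 4 of 179 groups of 4 to 6 libraries one value stood apart from the others by Dixon's criterion at the 95% level, where chance gives about 1 in 20. Gstm1 was high in luc replicate 5, at 225.4 TPM where the other luc tumours had 120 to 136 TPM; this tumour also had the highest summed hepatocyte markers of its group, 9091 TPM. Sult2a2 was high in the same library, at 2.10 TPM. Sult1b1 was low in healthy liver replicate 4, at 13.2 TPM against a group median of 18.9. Sult5a1 was high in lucOS males replicate 4, at 1.36 TPM. None of the 4 values decided a call of its gene in tumour against healthy liver.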

How the results depend on the processing

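No paired analysis was possible because the titles carry animal codes and no replicate numbers shared between groups. The count of genes called against healthy liver moved by less than 1.5 times under every alternative run. For luc males against luc (2 calls) it was 4 without microRNA genes, 1 with no filter, 5 with array weights, 0 with only the 2 groups in the fit and 0 to 5 when 1 library was left out. For lucOS males against lucOS (7 calls) it was 2 to 22 when 1 library was left out, while 1863 to 4792 of all genes were called. For lucOS males against luc males (0 calls) it was 0 to 1. Median ratio scaling moved the log2 differences of family sums from healthy liver to -7.94 in luc and -8.13 in lucOS for UGT, -6.43 and -7.24 for SULT, -3.63 and -3.75 for GST, and -5.75 and -5.89 for MGST. Without the subfamilies set aside for shared reads, UGT in luc was -7.84, GST in lucOS -2.20, and GST in lucOS against luc 0.148. Mgst3 reversed with median ratio scaling (-1.12) and quantile normalization (-0.52), as did Gsto2 (-0.25) and Mgst2 (-0.0066) with the latter. The causes were not tested. Of the other gene results, 1177 kept direction and call when 1 library was left out, 37 lost and 8 gained a call; elsewhere 466 kept both, 18 lost and 13 gained a call. With no depth known, genes near 1 TPM, such as Gsto2, Mgst2 and most Sult2a genes in tumours, have an unknown counting error.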
